A study of Rattus norvegicus with 12 samples.

Results

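The colon is not uniform along its length, and 9 of 12 arrays of rat colonic epithelium could be placed towards one end or the other by 3 Hox genes. The arrays were selected on the measured levels of these 3 genes: proximal-like where Hoxb6 and Hoxb7 were both above 10 on the normalized log2 intensity scale, and distal-like where Hoxb13 was above a threshold in the gap between 9.32 and 12. This gave 3 proximal-like arrays (normal protein replicate 6, high protein replicates 3 and 4) and 6 distal-like arrays (normal protein replicates 1 and 2, high protein replicates 1, 2, 5 and 6). The other 3 arrays (normal protein replicates 3, 4 and 5) met neither condition. The labels say nothing of where along the colon a sample was taken, so the group names describe gene levels and not a recorded site.

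Hox genes are transcription factors that keep a record of position along the body axis, and in the gut the members of the highest groups mark its posterior end. The proximal colon is known for fermentation, for taking up short-chain fatty acids and for bicarbonate and chloride exchange. The distal colon is known for the final recovery of sodium and water under the control of aldosterone, and for a dense inner mucus layer made by goblet cells.

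The samples came from male Wistar rats weighing 180 to 200 g that ate a normal or a high protein diet for 6 weeks, with 6 arrays per diet. Each array measured total RNA labelled colonic epithelium with 1 dye, Cy3, on an Agilent rat design read as spot intensity. Both position groups held both diets (1 normal and 2 high protein arrays were proximal-like, 2 normal and 4 high protein arrays distal-like), and diet was a term of the fit reported here. Nothing in the labels says whether replicates were separate animals, so p-values measure the spread between these samples, which may be technical. In tissue RNA of this kind, fewer cells of a type and less RNA per cell cannot be told apart.

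The values that chose the arrays are given as a description. Hoxb6 was at 10.95 in the proximal-like array of the normal diet and at 10.87 and 10.82 in the other proximal-like arrays, and no other array exceeded 7.49. Hoxb7 was at 10.29, 10.81 and 10.44 in the same order, and at most at 7.08 elsewhere. Hoxb13 lay between 12 and 12.56 in the distal-like arrays; the highest array outside that group was normal protein replicate 5 at 9.32, followed by replicate 3 at 8.26. For each of the 3 genes, the gap between the chosen arrays and the rest was wider than the range of the chosen arrays. High protein replicate 4 had more Hoxb13 (7.49) than the other proximal-like arrays (6.18 and 6.12). Because the groups were formed from measured levels in these arrays, each p below says how far a gene divided these arrays against their spread, and is no test of a labelled condition.

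**Figure D1:**
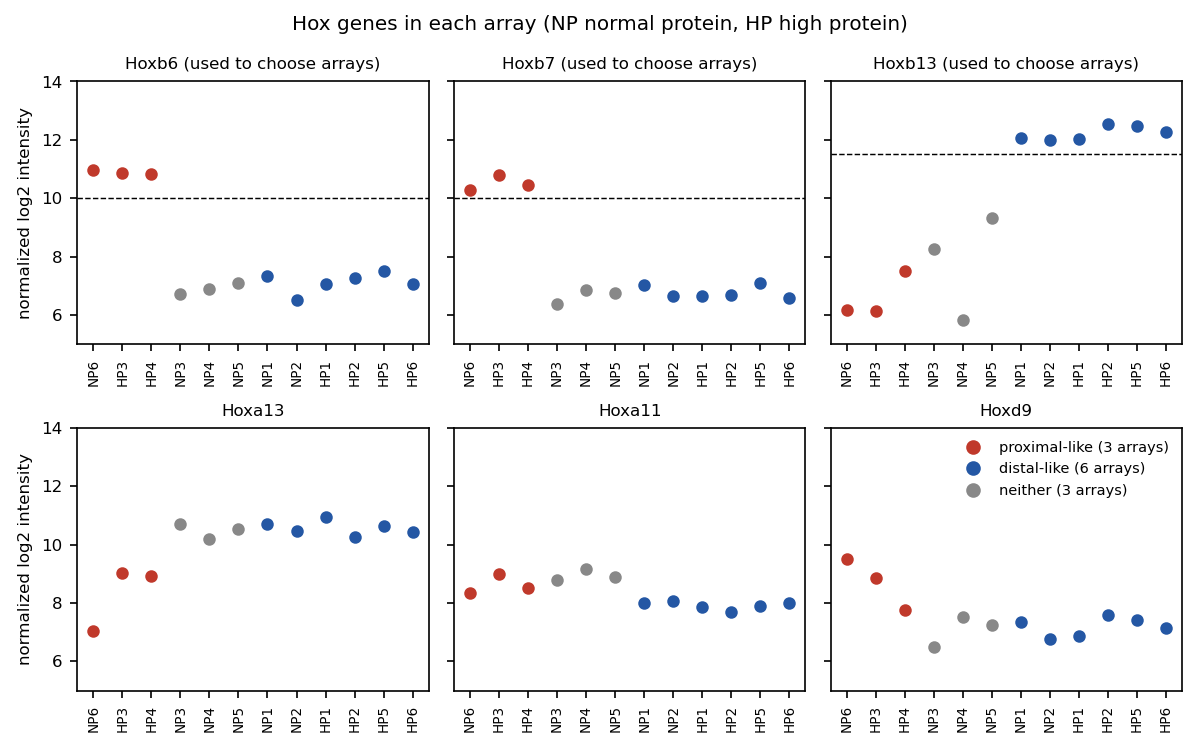
Normalized log2 intensity (vertical axis) of 6 Hox genes in each of the 12 arrays (horizontal axis; NP normal protein and HP high protein, with the replicate number), coloured by position group. Dashed lines are the thresholds (10 for Hoxb6 and Hoxb7), and the lower row shows Hox genes that were not used to choose arrays; Hoxa13 was at most 9.03 in the proximal-like arrays and at least 10.18 in all others.

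Across the 9 arrays, between 48.45% and 55.86% of gene spots were flagged good by the scanner software, and 75th percentiles of background-subtracted intensity lay between 223 and 385. Both ranges overlapped between the groups. The arrays lay on 3 slides: slide 1 held only distal-like arrays among the 9, slide 2 held 2 proximal-like and 1 distal-like array, and slide 3 held 1 proximal-like and 2 distal-like arrays. Epithelial markers were strong throughout, and so were smooth muscle markers, which epithelium itself lacks. Normal protein replicate 6 stood apart by its fat cell markers, whose values are given below with the genes they touch.

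Of 12617 genes tested with limma, 480 passed an adjusted p of 0.05 (Benjamini-Hochberg), which is 3.80% of all genes. Of these, 197 were higher (1.56%) and 283 lower (2.24%) in the proximal-like arrays. On the fitted values, at least a 2-fold difference was seen in 82 of the higher and 125 of the lower genes, and an 8-fold difference in 9 and 13. The median difference was 0.85 log2 units among the higher and -0.94 among the lower genes, against -0.02 over all genes. Before adjustment, 2215 of the 12617 genes had a limma p under 0.05. Whatever the test, the proximal-like arrays lay wholly above the distal-like ones in 560 genes (4.44%) and wholly below in 668 (5.29%). Leaving out normal protein replicate 6 gave 322 genes, 161 in each direction, of which 260 were among the 480. High protein replicate 3 mattered more: without it 271 genes passed, 114 higher and 157 lower. Leaving out a distal-like array also lowered the count, to 291 without high protein replicate 2, 305 without replicate 5 and 304 without replicate 6. Without high protein replicate 4, a proximal-like array, the count rose to 510, of which 317 were among the 480. Without normal protein replicate 1, 131 genes were higher. Scaling the arrays by their medians in place of quantiles shifted the split to 115 higher and 339 lower. With slide as a fixed block, 179 genes passed, 71 higher and 108 lower. In each of these fits all 480 genes kept the sign of their difference.

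**Figure D2:**
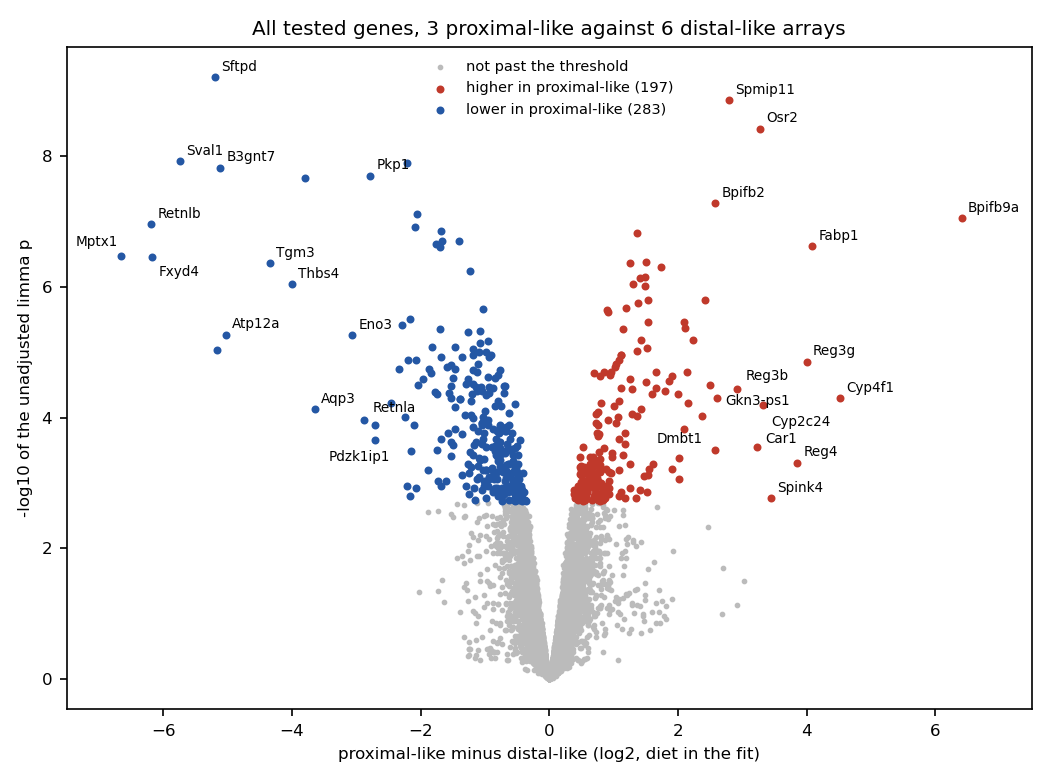
Difference between proximal-like and distal-like arrays (horizontal axis, log2, with diet in the fit) against -log10 of the unadjusted limma p (vertical axis) for each of the 12617 tested genes. Red and blue points are the 197 higher and 283 lower genes past the adjusted threshold, and the named points are the 14 largest differences on each side among genes with a usable symbol whose groups of arrays do not overlap.

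The largest rise and the largest fall were both in genes of secreted proteins. Levels of the proximal-like arrays are given in the order normal protein replicate 6, high protein replicate 3, high protein replicate 4. Bpifb9a, a secreted protein of the BPI fold family, was at 13.79, 12.73 and 14.32 in the proximal-like arrays and between 6.54 and 8.27 (median 7.08) in the distal-like arrays. That is a difference of 6.41 ± 0.42 (SE; 84.8-fold, adjusted p = 1e-04), the largest rise among genes with a symbol. Mptx1, a mucosal pentraxin of the family of C-reactive protein, went the other way. It was at 6.16, 6.40 and 8.59 in the proximal-like arrays and between 12.69 and 14.42 (median 13.83) in the distal-like arrays, a difference of -6.65 ± 0.51 (adjusted p = 2e-04). Its probe was flagged good on 1 of the 3 proximal-like arrays, so no fold is given. Retnlb, a resistin-like protein that goblet cells secrete against bacteria, was at 6.22, 6.09 and 6.74 against 11.62 to 13.60 (median 12.46) (difference -6.19 ± 0.42, adjusted p = 0.00011), and its probe was flagged good on no proximal-like array. In such a case the fold is a bound: the brighter group's mean against, on each dim array, the higher of its own value and the lowest good signal. Retnlb was thus at least 67.6-fold lower.

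The promoters of 4 of the genes with large differences are shown because members of both directions carry the letters TTTATNG, a form of the site that CDX and posterior Hox proteins are known to bind. The sequences are the 250 bases before the gene's start in RefSeq (build GRCr8), written 5′ to 3′ along the gene's own strand, with TTTATNG on either strand in capitals. Bpifb9a lies on the plus strand (chr10:43095996-43096245), Fabp1 on the plus strand (chr4:104749090-104749339), Mptx1 on the minus strand (chr13:88263870-88264119) and Retnlb on the minus strand (chr11:65448320-65448569).
Bpifb9a: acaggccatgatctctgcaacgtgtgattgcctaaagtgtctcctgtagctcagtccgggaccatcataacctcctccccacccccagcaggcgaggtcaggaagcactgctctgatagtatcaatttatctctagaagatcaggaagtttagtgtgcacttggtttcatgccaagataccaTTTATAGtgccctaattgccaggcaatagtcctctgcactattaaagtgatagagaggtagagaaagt
Fabp1: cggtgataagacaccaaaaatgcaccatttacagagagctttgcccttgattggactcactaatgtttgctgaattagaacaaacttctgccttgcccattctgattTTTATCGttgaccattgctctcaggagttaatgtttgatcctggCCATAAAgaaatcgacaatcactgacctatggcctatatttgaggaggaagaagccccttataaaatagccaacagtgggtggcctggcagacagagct
Mptx1: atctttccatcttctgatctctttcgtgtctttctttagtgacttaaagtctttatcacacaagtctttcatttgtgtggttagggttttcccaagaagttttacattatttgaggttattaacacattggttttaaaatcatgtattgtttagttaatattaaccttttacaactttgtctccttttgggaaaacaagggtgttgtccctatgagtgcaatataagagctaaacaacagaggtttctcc
Retnlb: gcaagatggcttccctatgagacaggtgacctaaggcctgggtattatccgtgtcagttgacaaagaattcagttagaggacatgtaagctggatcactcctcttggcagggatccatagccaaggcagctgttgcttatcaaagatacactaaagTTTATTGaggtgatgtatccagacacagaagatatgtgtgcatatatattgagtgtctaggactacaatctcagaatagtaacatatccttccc

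Counted from the gene's start, the letters begin at -68 in Bpifb9a, at -143 and, on the other strand, at -99 in Fabp1, and at -94 in Retnlb; they are not in this window of Mptx1. The letters TATAAA begin at -40 in Fabp1. In Bpifb9a they are read on the other strand and overlap the TTTATNG match. TTTATNG was held by 10.1% of all 27457 promoters in the table and by 6.97% of the 7767 that belong to tested genes. Among promoters of genes called higher it was in 15 of 144 (10.4%), and among those called lower in 18 of 201 (8.96%). TATAAA stood in 13.1% of all promoters, 7.39% of those of tested genes, 12.5% of the higher and 11.4% of the lower genes. A match is a description of letters and not of a bound site, and no binding was measured here.

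**Figure D3:**
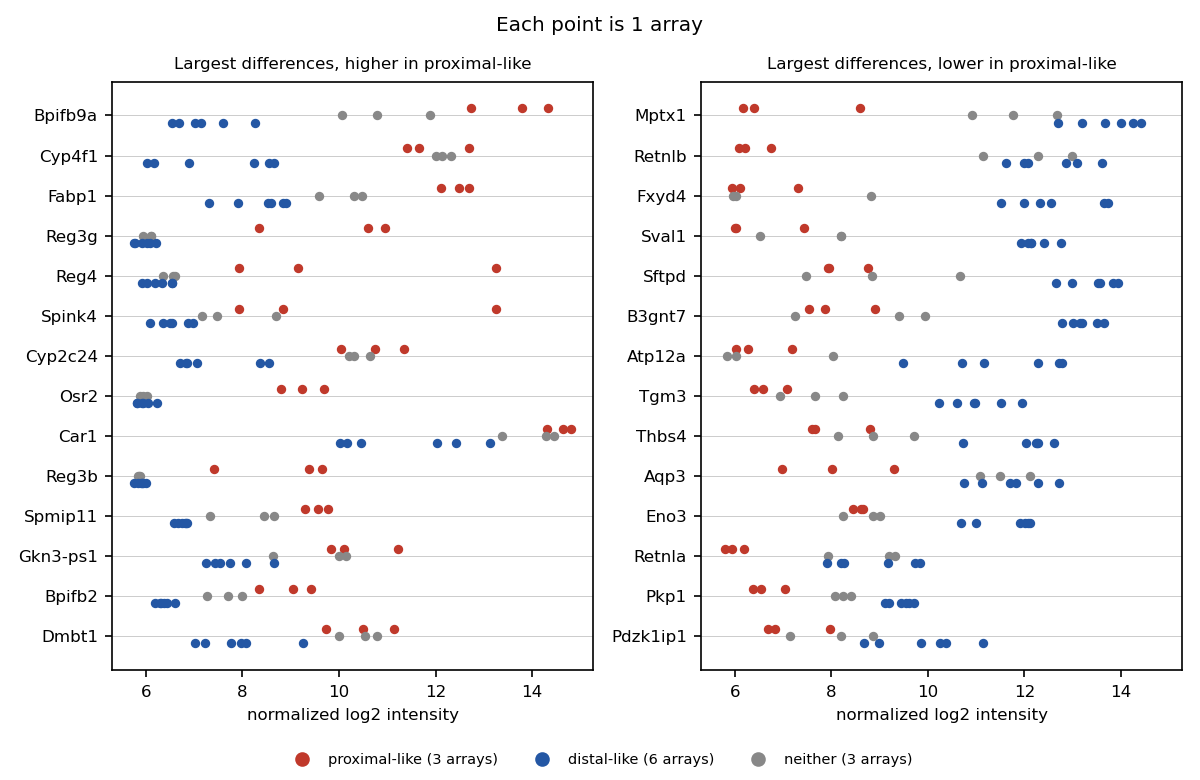
Normalized log2 intensity (horizontal axis) of the 14 genes with the largest differences on each side, 1 point per array, for the 3 proximal-like (red), 6 distal-like (blue) and 3 other arrays (grey). The red and blue points do not overlap in any of the 28 genes, and the grey points lie with the blue ones for Retnlb, Aqp3, Reg3g and Osr2 and with the red ones for Cyp4f1 and Cyp2c24.

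Secreted defence proteins moved in both directions. Of 48 on the list, 39 were on the array and 22 passed the filter on dim probes. Of these, 3 rose and 5 fell, with a median difference of -0.18. Over all tested genes 1.56% were higher and 2.24% lower. The counts of this list and of those that follow are to be read beside these shares. The 3 that rose were of the Reg family of secreted lectins. Reg3g, which kills Gram-positive bacteria, was at 10.60, 8.34 and 10.95 in the proximal-like arrays and between 5.76 and 6.20 (median 5.97) in the distal-like arrays, none of which had its probe flagged good. Reg3g was at least 12.7-fold higher (adjusted p = 0.0024). Reg3b was at 9.64, 7.42 and 9.37 against at most 6, at least 5.72-fold higher (adjusted p = 0.0039). Both were lower in high protein replicate 3 than in the other proximal-like arrays, and the near-identical members of this family can share signal on an array.

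Reg4, made by secretory cells of the crypt, rested mostly on 1 array. It was at 13.25, 9.15 and 7.93 in the proximal-like arrays, highest in the one from the normal diet, and between 5.91 and 6.55 (median 6.26) in the distal-like arrays. The difference of 3.85 ± 0.73 (adjusted p = 0.024) had an adjusted p of 0.069 without high protein replicate 3 and of 0.05, no longer under the threshold, without normal protein replicate 1; without normal protein replicate 6 it was smaller, at 2.38, and passed. Among the 5 that fell, and named after their values were seen, were Duox2, the epithelial oxidase that makes hydrogen peroxide, and Wfdc2, a secreted protease inhibitor. Duox2 was at 9.71, 10.42 and 11.05 against 11.65 to 12.69 (median 12.21), a difference of -1.84 ± 0.23 (adjusted p = 0.003). Wfdc2 was at 9.31, 10.24 and 9.82 against 11.03 to 11.85 (median 11.48), a difference of -1.68 ± 0.20 (adjusted p = 0.0023). The other fallen members were Il18 (-1.22), Duoxa2 (at least 1.83-fold) and the phospholipase Pla2g2a (-2.17); the last kept its call in only 2 of the 9 fits that each left out 1 array, and Duoxa2 in 4.

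Goblet cell products changed in both directions. Of 42 listed, 37 were on the array and 31 were tested; 2 rose and 6 fell, with a median difference of -0.13. Spink4, a goblet cell peptide of the trypsin inhibitor family, was at 13.26, 7.92 and 8.83 against 6.08 to 6.98 (median 6.52), so that normal protein replicate 6 carried most of the difference of 3.45 ± 0.78 (adjusted p = 0.046). Without that array the difference was 1.85 and still passed, but the call was kept in only 2 of the 9 fits with 1 array left out, with adjusted p up to 0.09. Dmbt1, a mucosal scavenger protein that binds bacteria, was at 9.73, 10.50 and 11.13 against 7.01 to 9.25 (median 7.88), a difference of 2.57 ± 0.46 (adjusted p = 0.018). It lost its call without high protein replicate 3 (adjusted p = 0.077) or replicate 4 (0.051). Besides Retnlb, the genes that fell were Best2, a bicarbonate-permeable channel of goblet cells, Muc1 and Muc4, which are membrane mucins, Bcas1 and the protease Tmprss2. Best2 was at 6.92, 7.40 and 7.33 against 8.56 to 10.11 (median 9.75), a difference of -2.34 ± 0.29 (adjusted p = 0.0029). Muc1 and Muc4 differed by -1.59 and -1.60; Muc4 kept its call in 3 of the 9 fits. Retnla, a relative of Retnlb outside the list, was at 5.95, 5.79 and 6.20 against 7.91 to 9.84 (median 8.72), at least 5.57-fold lower (adjusted p = 0.0086).

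Sodium and potassium transport under aldosterone was lower in the proximal-like arrays or did not pass. All 24 listed genes were on the array and 22 were tested. None rose and 4 fell, with a median difference of -0.43. At an unadjusted p under 0.05 in the limma fit, 0 were higher and 13 lower. Over all 12617 genes, 2215 were under it in either direction. Fxyd4, a corticosteroid-induced regulator of the sodium pump, was at 5.95, 6.1 and 7.31 against 11.51 to 13.73 (median 12.44), a difference of -6.17 ± 0.48 (adjusted p = 2e-04). Atp12a, the colonic proton-potassium pump that recovers potassium, was at 6.02, 6.27 and 7.18 against 9.48 to 12.78 (median 11.72), a difference of -5.03 ± 0.54 (adjusted p = 0.0014). The probes of Fxyd4 and Atp12a were each flagged good on 1 of the 3 proximal-like arrays. Scnn1a, the alpha subunit of the epithelial sodium channel, was at 6.68, 6.69 and 7.66 against 8.15 to 8.60 (median 8.39), a difference of -1.38 ± 0.19 (adjusted p = 0.0049). In Fxyd4, Atp12a and Scnn1a high protein replicate 4 was the highest of the proximal-like arrays. The same array was highest of the 3 in 162 of the 283 genes called lower, against 87 for high protein replicate 3 and 35 for normal protein replicate 6. The last member to fall was Atp1b1, a subunit of the sodium pump, by 0.82, a call kept in 1 of the 9 fits.

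Water channels fell as well: of 13 aquaporin and urea transport genes, all on the array, 7 were tested, of which 3 fell and none rose (1 had an unadjusted p under 0.05 on the higher side), with a median of -0.26. Aqp3, which carries water and glycerol, was at 8.02, 6.98 and 9.30 against 10.74 to 12.71 (median 11.76), a difference of -3.64 ± 0.54 (adjusted p = 0.0064). Aqp8 was at 6.13, 6.31 and 6.71 against 7.77 to 9.53 (median 8.42), at least 4.03-fold lower (adjusted p = 0.0096, and 0.051 without high protein replicate 3). Aqp4 was at least 1.48-fold lower (adjusted p = 0.018, and 0.063 without normal protein replicate 6).

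Among 26 tested genes of chloride, bicarbonate and proton transport (43 listed, 37 on the array), 2 rose and 2 fell, with a median of 0.09. Car1, a carbonic anhydrase of colonic surface cells, was at 14.65, 14.31 and 14.81 in the proximal-like arrays. The distal-like arrays spread widely, from 10.03 to 13.13 (median 11.24), with the 3 lowest in high protein replicates 2, 5 and 6. Its difference was 3.22 ± 0.57 (adjusted p = 0.016); the call was lost without high protein replicate 3 (0.07) or replicate 4 (0.053). Car8, a related protein without the enzyme's activity and named after its values were seen, rose by 1.43 ± 0.16 (adjusted p = 0.0016). Ano1, a calcium-activated chloride channel that also marks the pacemaker cells of the gut muscle, was at 9.11, 10.14 and 9.86 against 10.89 to 11.43 (median 11.26), a difference of -1.52 ± 0.20 (adjusted p = 0.0038); Best2 was the other member to fall.

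Bile acid handling held called genes on the higher side only, and most of these calls were lost in most fits that left out 1 array. Of 21 listed genes, 20 were on the array and 10 were tested; 4 rose and none fell (0 with an unadjusted p under 0.05 on the lower side in the limma fit), with a median of 0.62. Slc51b and Slc51a, which together form the exporter of bile acids on the basolateral side, led it. Slc51b was at 10.38, 9.25 and 10.91 against 7.75 to 8.57 (median 7.90), a difference of 2.16 ± 0.31 (adjusted p = 0.0054). Slc51a was at 8.98, 8.07 and 9.81 against 6.56 to 7.51 (median 7.04), a difference of 1.91 ± 0.37 (adjusted p = 0.027). Neither pair of groups overlapped. Without normal protein replicate 6 the count fell from 4 to 1, Slc51b, although the list's median was then 0.73. The differences of Slc51b and Slc51a were then 2.2 and 1.89. Slc51a kept its call in 3 of the 9 fits, the efflux pump Abcg2 (1.41 ± 0.31, adjusted p = 0.04) in 2, and the ileal bile acid binding protein Fabp6 (1.35, adjusted p = 0.048) in 1.

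Both called lipid binding proteins rose, and called peptidases moved in both directions. Of 48 listed genes of the brush border and lipid absorption, 45 were on the array and 26 tested; 3 rose and 2 fell, with a median of -0.09. Fabp1, the liver-type fatty acid binding protein, was at 12.69, 12.11 and 12.48 against 7.31 to 8.91 (median 8.56), a difference of 4.08 ± 0.30 (16.9-fold, adjusted p = 0.00016). Fabp2, the intestinal type, was at 11.45, 9.74 and 11.64 against 8.41 to 9.55 (median 8.89), a difference of 2.02 ± 0.38 (adjusted p = 0.021). Fabp2 kept its call in 6 of the 9 fits, and had an adjusted p of 0.085 without normal protein replicate 6. Mep1b, the beta subunit of the peptidase meprin, was at 9, 9.96 and 9.85 against 11.30 to 11.94 (median 11.64), a difference of -2.05 ± 0.13 (adjusted p = 9.7e-05). The remaining calls, named after their values were seen, were Dpp4, which fell by 1.82 (adjusted p = 0.0019), and the peptidase Ace, which rose by 0.78 (adjusted p = 0.025, kept in 5 of the 9 fits).

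The enzymes that build mucin and surface sugars changed in both directions, and one of them changed more than almost any other gene. Of 65 listed glycosyltransferases and sulfotransferases, 61 were on the array and 42 tested; 3 rose and 6 fell, with a median of -0.01. B3gnt7, which extends chains of keratan sulfate type, was at 7.86, 7.54 and 8.91 against 12.77 to 13.65 (median 13.18), a difference of -5.11 ± 0.28 (34.5-fold lower, adjusted p = 3.1e-05). Chst5, which adds sulfate to N-acetylglucosamine, was at 6.20, 5.89 and 6.03 against 7.26 to 8.48 (median 8.14), at least 3.08-fold lower (adjusted p = 0.0033). Gcnt3, which makes the branched cores of mucin sugars, ran the opposite way. It was at 9.37, 9.33 and 9.68 against 6.89 to 8.05 (median 7.78), a difference of 1.86 ± 0.24 (adjusted p = 0.0035). The other 4 that fell were B3gnt3, Fut1 and the sialyltransferases St6galnac1 and St6galnac6, by 0.56 to 1.58, and the other 2 that rose were Abo (1.17) and St6galnac2 (0.93); of these 6, Fut1 kept its call in 6 of the 9 fits, St6galnac2 in 3 and the rest in all.

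**Figure D4:**
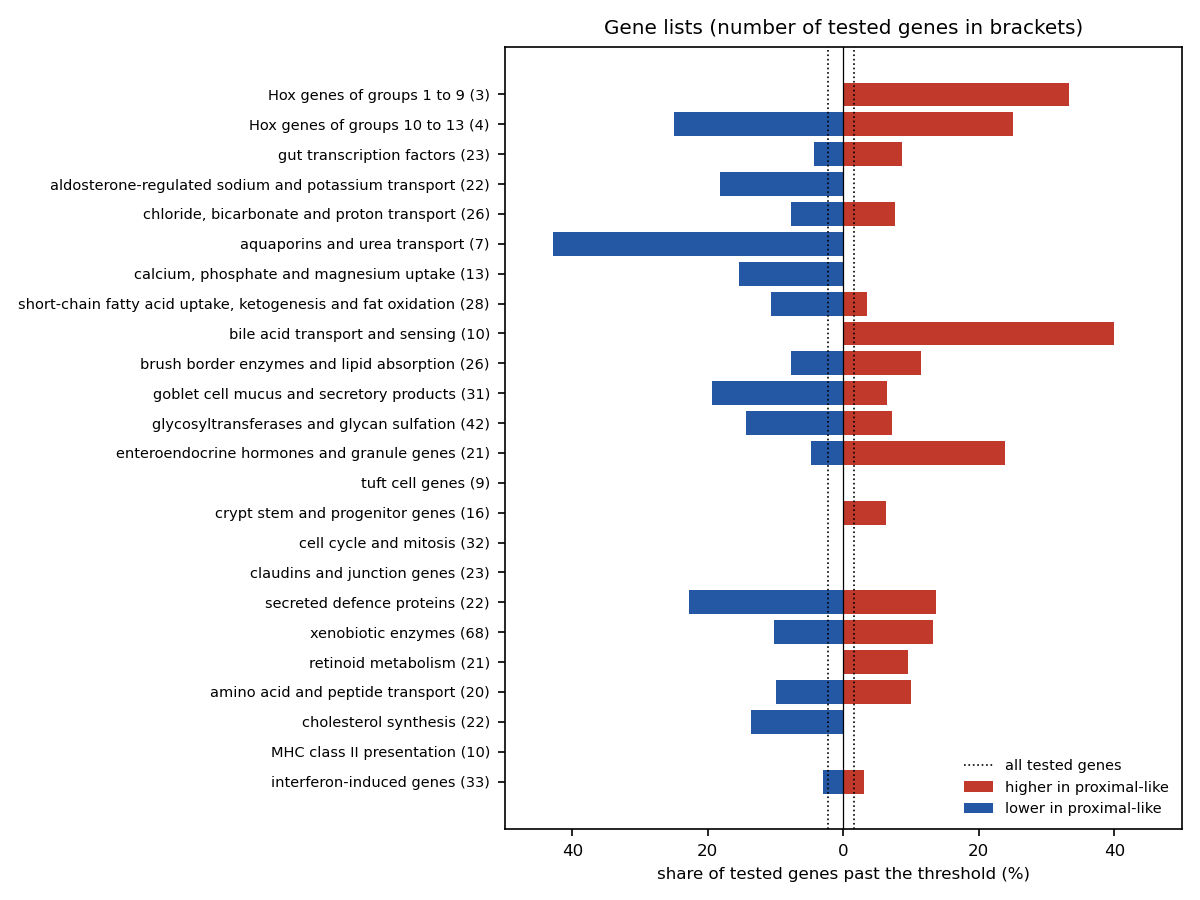
Share of each list's tested genes (number in brackets) that passed the adjusted threshold, with lower in proximal-like drawn to the left and higher to the right. Dotted lines are the shares over all 12617 genes, 2.24% lower and 1.56% higher; aquaporins and sodium and potassium transport reach only to the left and bile acid transport only to the right, several lists hold under 10 tested genes, and the tuft cell, cell cycle, claudin and MHC class II lists have no bar.

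Of 21 tested enteroendocrine hormone and granule genes, 5 were higher in the proximal-like arrays and 1 was lower (42 listed, 40 on the array, median 0.08). The log2 of the list's summed intensity was 12.83, 13.41 and 13.6 in the proximal-like arrays and 13 to 13.21 in the distal-like arrays. The arrays of neither group had more, 13.79 to 13.9, and Ghrl (7.23 to 8.84) and Chgb (11.64 to 12.09) were not low in them. Ghrl, the hormone ghrelin, was at 6.97, 8.17 and 8.59 against 5.93 to 6.07 (median 6.02), at least 3.07-fold higher (adjusted p = 0.0031). Slc18a1, which loads amines such as serotonin into granules, was at 7.86, 8.23 and 8.47 against 6.37 to 6.94 (median 6.62), a difference of 1.52 ± 0.17 (adjusted p = 0.0019). Chgb, a granule protein, was at 11.06, 11.55 and 11.93 against 9.23 to 10.52 (median 10.06), a difference of 1.55 ± 0.30 (adjusted p = 0.027) that passed in 5 of the 9 fits. Chga (1.47) and Tph1 (0.92), the enzyme that starts serotonin synthesis, passed in 2 and 1 of them. Pyy, the peptide hormone of colonic L cells, moved against these: it was at 9.15, 10.45 and 10.93 against 10.93 to 11.79 (median 11.40), a difference of -1.17 ± 0.20 (adjusted p = 0.015, and 0.065 without high protein replicate 3). Chga, Tph1 and Pyy were named after their values were seen.

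Most of the tested transcription factors of the gut did not pass, as held for all genes, of which 3.80% passed. Of 30 listed, 29 were on the array and 23 tested. Of these, 2 rose and 1 fell, with a median of 0.01. Osr2, a zinc finger factor, was at 8.79, 9.24 and 9.69, while all distal-like arrays lay between 5.81 and 6.24 (median 5.94) with the probe flagged good on none. It was at least 7.71-fold higher (adjusted p = 1.6e-05). Pparg, a nuclear receptor for fatty acids that is also the main regulator of fat cells, was at 11.65, 10.44 and 10.77 against 9.21 to 9.58 (median 9.46), a difference of 1.5 ± 0.20 (adjusted p = 0.0036); its highest value was in the array with fat markers, and it passed without it as well. Foxa2, a forkhead factor of endodermal organs, was at 6.83, 7.45 and 7.66 against 8.70 to 9.33 (median 8.98), a difference of -1.66 ± 0.12 (adjusted p = 0.00015).

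Hox genes that were not used to choose the arrays divided less evenly. Beyond the 3 genes used, 25 Hox genes of groups 1 to 9 and 11 of groups 10 to 13 were listed, 19 and 8 were on the array, and 3 and 4 were tested. Hoxa13, the posterior gene at the end of its cluster, was at 7.03, 9.03 and 8.94 against 10.25 to 10.94 (median 10.56), a difference of -2.24 ± 0.34 (adjusted p = 0.0077). Without normal protein replicate 6, the lowest array, the difference was -1.58 and still passed. Hoxd9 (1.52 ± 0.34, adjusted p = 0.042) and Hoxa11 (0.70 ± 0.15, adjusted p = 0.039) rose, and each kept its call in only 1 of the 9 fits that left out an array. Hoxa7 differed by 0.87 (adjusted p = 0.066; the array's own name for this probe is Hoxa9, while its RefSeq accession names Hoxa7) and by 1.22 without normal protein replicate 6, where it passed (adjusted p = 0.016). Hoxa9 differed by 0.05, Hoxd10 by 0.16 and Hoxd13 by -1.36 (adjusted p = 0.15). Hoxa11, of a posterior group, thus stood opposite to Hoxa13.

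Enzymes that process foreign compounds formed the longest list: of 112 genes, 105 were on the array and 68 tested. Of these, 9 rose and 7 fell (median 0.10), against 1.56% higher and 2.24% lower over all genes. Cyp4f1, of a family that oxidizes fatty acids, was at 11.41, 11.65 and 12.70 against 6.02 to 8.65 (median 7.56), a difference of 4.51 ± 0.63 (adjusted p = 0.0048), with the probe flagged good on 4 of the 6 distal-like arrays. Within the distal-like arrays it was lowest in high protein replicates 2, 5 and 6, the same 3 arrays in which Car1 was lowest. Gsta3, a glutathione transferase, was at 9.36, 9.38 and 9.13 against 7.29 to 7.86 (median 7.56), a difference of 1.74 ± 0.14 (adjusted p = 0.00024). Cyp2f4 was at 5.93, 5.97 and 5.95 against 6.96 to 8.54 (median 7.62), at least 2.5-fold lower (adjusted p = 0.0043). Cyp2c24, which the list does not hold, was at 10.75, 10.04 and 11.35 against 6.71 to 8.54 (median 6.96), a difference of 3.32 ± 0.48 (adjusted p = 0.0057). The other genes that rose were Ptgr1 (1.36), Aldh1b1 (1.26), Ephx1 (0.97), Gstk1 (0.85), Ces2c (at least 1.49-fold), Maoa (0.69) and Mgst3 (0.61). Those that fell were Cyp2d1 (-1.53), Cyp2d5 (-1.36), Fmo2 (-1.26), Cyp4f5 (-1.21), Gsta2 (at least 2.09-fold) and Sult1b1 (-0.81); all 13 were named after their values were seen, and Aldh1b1, Maoa, Mgst3, Fmo2, Cyp4f5, Gsta2 and Sult1b1 kept their calls in 4 or fewer of the 9 fits. Members of the Cyp and Gst families have similar sequences and may share signal.

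Several other genes lay among the largest differences. Sftpd, the collectin surfactant protein D, had the smallest p of all: it was at 7.95, 7.94 and 8.75 against 12.65 to 13.94 (median 13.54), a difference of -5.20 ± 0.20 (36.8-fold lower, adjusted p = 7.8e-06). Sval1, named for its likeness to a seminal vesicle antigen, was at 6.01, 6.02 and 7.44 against 11.93 to 12.75 (median 12.14), a difference of -5.74 ± 0.30 (adjusted p = 3.1e-05). Tgm3, a transglutaminase that cross-links proteins, was at 6.58, 6.40 and 7.08 against 10.22 to 11.95 (median 10.96), a difference of -4.34 ± 0.34 (adjusted p = 0.00022). In all 3 the arrays of neither group lay below every distal-like array. Thbs4, a matrix thrombospondin, differed by -4.00 ± 0.35 and Eno3, the muscle form of enolase, by -3.06 ± 0.33 (adjusted p = 0.00037 and 0.0014). Pkp1, a desmosome protein, differed by -2.78 ± 0.16 and Pdzk1ip1, a small membrane protein, by -2.71 ± 0.46 (adjusted p = 3.5e-05 and 0.013); the latter lost its call without normal protein replicate 6 (0.053) or high protein replicate 3 (0.068). On the higher side, Spmip11 (2.79 ± 0.12, adjusted p = 8.8e-06), Gkn3-ps1, by its symbol a gastrokine pseudogene (2.61 ± 0.37, 0.0049), and Bpifb2 (2.58 ± 0.16, 7.4e-05), a relative of Bpifb9a, completed the 14 largest. In the dimmer group the probe was flagged good on 1 of 3 arrays for Sval1, Tgm3, Muc1 and Casq2. It was flagged good on 2 of 3 for Thbs4, Pkp1, Pdzk1ip1, Mep1b, Dpp4, Acss2 and Slc1a1. It was flagged good on 1 of 6 for Bpifb2, Slc38a4, Fabp6 and Cyp26b1, on 2 of 6 for Reg4, and on 4 of 6 for Spink4, Slc18a1 and St6galnac2. For Cyp26b1 the brighter group, the proximal-like arrays, also had it flagged good on only 2 of 3. The differences of all these genes rest in part on values without a good flag.

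The lists of nutrient uptake and metabolism held few calls in number, but in each the share called was above the 3.80% of all genes. For short-chain fatty acid uptake, ketogenesis and fat oxidation, 1 of 28 tested genes rose and 3 fell (median 0.00). Acss2, which makes acetyl-CoA from acetate, was at 8.82, 8.92 and 9.08 against 9.81 to 10.42 (median 10.07), a difference of -1.18 ± 0.15 (adjusted p = 0.0029). Slc5a8, the sodium-coupled carrier of short-chain fatty acids, was lower by 1.01 (adjusted p = 0.038), a call kept in 2 of the 9 fits. So was that of Acsm3, a medium-chain acyl-CoA synthetase (at least 1.43-fold lower), and the carrier Slc16a7 rose by 0.45, a call kept in 1. In cholesterol synthesis, Stard4, which carries cholesterol between membranes, differed by -0.93 (adjusted p = 0.032) and Tm7sf2, a sterol reductase, by -0.62 (adjusted p = 0.024). These calls were kept in 2 and 3 of the 9 fits, and both were lost without normal protein replicate 6. Calcium, phosphate and magnesium uptake had 2 of 13 lower, Slc20a1 (-1.24) and Cnnm4 (at least 1.26-fold lower), which kept their calls in 2 and 0 of the 9 fits. Amino acid and peptide transport had 2 of 20 higher, Slc38a4 (1.17) and Slc6a6 (0.50), and 2 lower, Slc1a1 (-0.58) and Slc6a14 (at least 1.35-fold); without normal protein replicate 6 the counts were 1 and 0. Retinoid metabolism had 2 of 21 higher, Dhrs3 (0.92) and Cyp26b1 (0.53), and none of the 21 without that array. Of 33 interferon-induced genes, Cxcl11, a chemokine for T cells, was at least 2.59-fold higher (adjusted p = 0.00039) and Gbp1, a guanylate binding protein, at least 1.98-fold lower (adjusted p = 0.015, and 0.069 without high protein replicate 3).

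No member passed in the lists of cell cycle and mitosis (32 tested; 1 with an unadjusted p under 0.05 in the limma fit), claudins and junctions (23 tested; 7), tuft cells (9 tested; 2 in all) and MHC class II (10 tested; 0). Their medians were -0.09, -0.21, -0.15 and 0.34. For comparison, 2215 of all 12617 genes had an unadjusted limma p under 0.05. Without normal protein replicate 6, 3 MHC class II genes and 1 cell cycle gene, Tyms (0.85, adjusted p = 0.024), passed on the higher side. Crypt stem and progenitor genes had Reg4 alone among 16 tested. A count of 0 leaves room for differences smaller than these 9 arrays can resolve.

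Markers of other cell types were followed beside these results as the log2 of their summed intensity. The 13 tested fat cell markers summed to 16.59 in normal protein replicate 6 and to between 12.20 and 13.20 in the other 8 arrays. Their median difference was 1.36 with that array and -0.03 without it, and none of the 13 passed either way (3 with an unadjusted p under 0.05). Cfd, a protease that fat cells secrete, was at 14.78 in that array, 10.22 and 9.55 in the other proximal-like arrays, and between 9.08 and 11.34 in the distal-like arrays. Red blood cell markers also summed highest in normal protein replicate 6 (15.59) and next in high protein replicate 3 (14.97). They summed to 13.87 in high protein replicate 4 and to 13.90 to 14.33 in the distal-like arrays. None of 6 passed, and 3 had an unadjusted limma p under 0.05, all on the higher side. Their median difference was 0.63, and 0.2 without normal protein replicate 6. Of the 28 genes with the largest differences, all but Pdzk1ip1 passed without that array, and Reg4 and Spink4 lost most in size. The part of fat in the gene differences was not tested beyond leaving that array out.

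Smooth muscle and interstitial cell markers summed to 15.71 in high protein replicate 4 and to between 16.31 and 16.77 in the other 8 arrays. Of 26 tested, 3 fell and none rose (0 with an unadjusted p under 0.05 on the higher side): Ano1, Synm and Casq2, the last 2 named after their values were seen. The median was -0.24, and 0.04 without high protein replicate 4; Ano1 also lies in the chloride list, and its difference ran from -1.19 to -1.72 as single arrays were left out. Epithelial markers summed to between 16.07 and 16.60 in the proximal-like and 16.27 and 16.47 in the distal-like arrays, with none of 14 past the threshold (2 with an unadjusted p under 0.05). Endothelial markers summed to 12.62 to 13.15 against 12.11 to 12.65 (0 of 13 passed; 6 with an unadjusted p under 0.05). Of 19 macrophage and dendritic cell genes Fcgr1a alone rose (0.58), a call kept in 1 of the 9 fits. No tested marker of fibroblasts (23), enteric neurons and glia (17), B and plasma cells (10), T and NK cells (12), or mast cells and granulocytes (12) passed. Unadjusted limma p-values under 0.05 were found for 6, 3, 1, 1 and 4 of these, and for 2215 of all 12617 genes. Of squamous epithelium and mesothelium only 1 gene each was bright enough to test, and neither passed (0 at an unadjusted p under 0.05). The part these cells play in the gene differences was not tested.

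**Figure D5:**
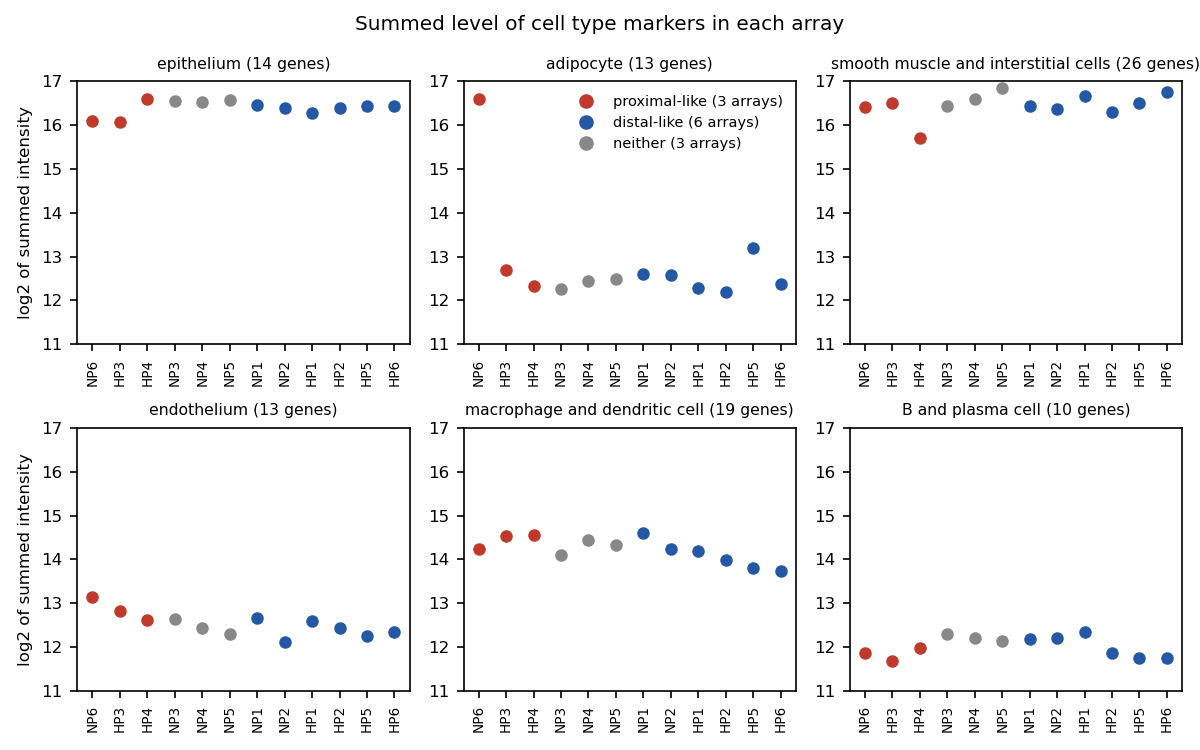
Log2 of the summed intensity of the tested markers of 6 cell types (vertical axis) in each array (horizontal axis; NP normal protein, HP high protein), coloured by position group. The fat cell sum of normal protein replicate 6 is 16.59, against at most 13.20 in the other 8 arrays of the comparison, and the smooth muscle sum of high protein replicate 4 is 15.71, below all others.

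The 3 arrays that met neither condition were not used in the fit, and they lay between the groups as a whole. On a scale where 0 is the distal-like mean and 1 the proximal-like mean of each gene, normal protein replicates 3, 4 and 5 had medians of 0.48, 0.62 and 0.54 over the 197 higher genes and of 0.41, 0.67 and 0.54 over the 283 lower ones. Single genes did not sit in the middle together. Among the higher genes, all 3 arrays were nearer the proximal-like mean in 60 and nearer the distal-like mean in 44; among the lower genes the counts were 86 and 67. Cyp4f1 was at 12.13, 12.32 and 12 in these arrays, at the level of the proximal-like ones. Retnlb was at 12.99, 12.28 and 11.14, Aqp3 at 12.12, 11.08 and 11.49 and Hoxa13 at 10.70, 10.18 and 10.53, all within or close to the distal-like range. Atp12a (6.02, 5.83 and 8.03) and Fxyd4 (6.03, 5.97 and 8.83) were near the proximal-like levels, with replicate 5 higher. These 3 arrays were all of the normal protein diet. Normal protein replicate 3 had the lowest share of gene spots flagged good (42.67%) of the 12 arrays. Its 75th percentile of background-subtracted intensity (130) was the lowest as well, so its levels carry this limit.

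Diet itself, tested in the same fit with position held, gave 4 of 12617 probes or genes past the threshold (0.0317%), all higher on high protein, and 688 with an unadjusted p under 0.05. They were the metallothioneins Mt1 (2.57 ± 0.21, adjusted p = 0.0035) and Mt2A (3.95 ± 0.33, adjusted p = 0.0035), which bind zinc and copper, and 2 features without a usable symbol. Mt1 was at 12.20, 11.45 and 11.20 in normal protein replicates 1, 2 and 6 and between 13.97 and 14.67 in the 6 high protein arrays. The 3 normal protein arrays outside the fit did not follow: Mt1 was at 14.52, 13.07 and 14.11 in replicates 3, 4 and 5. None of the 4 passed between position groups (Mt1 by -0.39, adjusted p = 0.38), and without normal protein replicate 1 a single gene passed between diets. All 480 genes called between position groups had the same sign of difference within the normal protein arrays and within the high protein arrays. The genes were called on these same arrays, so the shared sign is a description and no further support. Within the slides that held both groups the sign was also the same for all 480, and the size was over 0.5 of the full value for 473 on slide 2 and 452 on slide 3; these are arrays of the fit itself.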

How the data were processed

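The arrays were scanned at 532 nm with GenePix Pro 6.1.0.4, per the file headers, and the deposited files give each spot's mean foreground and median background intensity a flag, and the percent of its pixels at saturation; RMA is named in the submitters' processing notes with no version. The series' value table holds log2 values that the authors deposited; its identifiers matched the scanner values only after a move by 1 row (correlation 0.996, against -0.008 as given), so it served only as an alternative. Its column medians were 4.36 to 4.45.

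Here intensities were background corrected (normexp, offset 50) with limma 3.58.1 in R 4.3.3, and control spots were then left out. The gene spots were put on the log2 scale and quantile normalized over 12 arrays, and spots of a probe were averaged. The test took probes with a good flag on a share of 0.5 or more of their spots in 3 or more of the 9 arrays, and a gene is its probe of highest mean level. The probes of Reg3g, Reg3b, Osr2, Ghrl, Cxcl11 and Ces2c were good on the 3 proximal-like arrays only. They thus entered through the group where they were high, and their p-values must be read with this limit. With 6 good arrays required, such probes were not tested. Probes good on distal-like arrays only, as for Retnlb, entered through that group. Names come from RefSeq accessions (GRCr8), otherwise from the array. The fit held position and diet, without the 3 genes that chose the arrays, and p-values were adjusted over all genes (Benjamini-Hochberg, 0.05).

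The arrays, lists and tests were chosen with earlier results of these data known. Named genes are the 14 largest called differences with a usable symbol and no overlap per direction, up to 3 called genes per list by size, the tested Hox genes, and up to 4 genes per marker list. Same-numbered arrays of the 2 diets did not deviate together in every pair (correlations 0.23, -0.14 and 0.32), so the numbers were not taken as pairs. The code was tested on simulated data. Some results are not reported here.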

Additional observations from a re-analysis of the deposited data

Results flagged for a closer look

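Among the 156 values checked over the 6 distal-like arrays, 7 had 1 array set apart from the other 5 (Dixon's test at the 95% level), and chance alone sets about 1 in 20 groups apart. Normal protein replicate 2 held 3 of them: Thbs4 was at 10.72 there against 12.04 to 12.61, the T cell chemokine Ccl5 at 8.96 against 7.82 to 8.14, and the T cell marker Cd7 at 8.91 against 7.81 to 8.01. Slc38a4 was at 6.91 in high protein replicate 2 against 6.06 to 6.16. Krt20, a keratin of surface epithelium, was at 12.23 in high protein replicate 1 against 12.79 to 13.12. High protein replicate 5 had Hbb-b1, a hemoglobin chain, at 11.05 against 11.45 to 11.64, and the summed level of brush border and lipid absorption genes at 14.07 against 13.74 to 13.86.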

How the results depend on the processing

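The 480 calls kept their sign under every alternative that tested them, and 34 of the 65 called named genes also stayed past the threshold throughout. The number of calls moved more. Median scaling gave 115 higher and 339 lower genes, so that 25.3% of calls were higher, with a median over all genes of -0.08. Slide as a fixed block gave 179 calls, 71 higher and 108 lower, of which 163 were among the 480. Leaving out 1 array gave 271 to 510 calls, 95 to 223 higher and 157 to 287 lower, and 1 to 4 between diets. The replicate block as a random term gave 479 calls, 199 higher and 280 lower, with 469 shared. The other scaling, filter and fit settings gave 352 to 682.

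Some values that had not passed changed sign; the cause was not tested. With the slide block Cd7 was at -0.04 and Gpd1 at -0.29, and with median scaling Cd7 was at -0.02. The median of Hox groups 10 to 13 was 0.16 where 6 good arrays were required and 0.02 with no filter. The rest changed sign when 1 array was left out, and the ranges over the 9 such fits follow. Leaving out normal protein replicate 6 turned Hoxd10 (-0.21 to 0.54), Gpd1 (-1 to 1.23), Col1a2 (-0.42 to 0.01), Mcpt8 (-0.58 to 0.30), Mcpt9 (-0.64 to 0.24), Mcpt1 (-0.72 to 0.41), Tp63 (-0.06 to 0.27) and the medians of crypt stem (-0.17 to 0.12) and fat cell genes (-0.03 to 1.78). Krt19 (-0.39 to 0.08) turned there and without high protein replicate 3, as did Krt20 (-0.87 to 0.02), Pck1 (-0.83 to 0.13) and the brush border median (-0.25 to 0.19) without the latter. High protein replicate 4 turned Myh11 (-0.44 to 0.12), Myl9 (-0.61 to 0.05), Tpm2 (-0.44 to 0.09), Cryab (-0.62 to 0.01), Cd3g (-0.01 to 0.46) and the chloride (-0.12 to 0.25) and smooth muscle medians (-0.44 to 0.04). Hoxa9 (-0.16 to 0.46), Cd7 (-0.16 to 0.21) and Cd3d (-0.02 to 0.19) turned in several fits. With 3 arrays in 1 group, the number of arrays limits the precision, and genes not well above background have bounds only.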
